A study of Mus musculus with 4 samples.

Results

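The main genes of the basement membrane, Lama1, Lama5, Lamb1, Lamc1, Col4a1, Col4a2, Nid1, Nid2, Hspg2 and Sparc, were measured by RNA-seq in mouse E14 embryonic stem cells with a knockdown of Lx8-SINE B2. They were found by symbol, and all 10 of 10 were among the 35976 gene rows of the raw count table. Knockdown cells (2 libraries) were E14 cells of the strain labelled 12910la. In them a pSuper puro vector carried the short hairpin RNA against Lx8-SINE B2, a name that joins Lx8 with SINE B2 repeats. Control cells (2 libraries) were the same line, labelled wild type. Both groups grew on gelatin with 15% FBS and mLIF, and one description of transfection and of 3 days in puromycin covered all samples, without saying which vector the controls received. The labels do not say whether the 2 libraries of each group are independent cultures. The p-values therefore reflect the spread between the libraries alone, and that spread may be technical. Only the knockdown titles carry the word batch1: effects of the knockdown and of such a batch cannot be told apart.

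A basement membrane is a thin sheet of extracellular matrix that carries epithelia, and in the early mouse embryo it separates the epiblast from the endoderm around it. Laminins, trimers of an α, a β and a γ chain, polymerise at the cell surface. Collagen IV forms a second network in trimers that hold more α1 than α2 chains, nidogens bridge the laminin and collagen networks, and perlecan binds to both. Embryonic stem cells make laminin and collagen IV themselves, and these proteins are known as abundant products of primitive and parietal endoderm.

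Col4a1 and Col4a2, which encode the α1 and α2 chains of collagen IV, lie head to head on chromosome 8 (mm10, RefSeq as for all gene positions here). Col4a1 runs from 11198423 to 11312889 on the minus strand and Col4a2 from 11312805 to 11449287 on the plus strand. Their promoters are shown because the transcripts kept nearly the same profile over the libraries, as described with the collagen results. The RefSeq promoter windows of 300 bases (GRCm38.p6, the build mm10) were chr8:11312777-11313076, minus strand, for Col4a1 and chr8:11312555-11312854, plus strand, for Col4a2. Each is written 5′ to 3′ on its own strand, and the capitals mark the 78 bases that both windows contain.
Col4a1: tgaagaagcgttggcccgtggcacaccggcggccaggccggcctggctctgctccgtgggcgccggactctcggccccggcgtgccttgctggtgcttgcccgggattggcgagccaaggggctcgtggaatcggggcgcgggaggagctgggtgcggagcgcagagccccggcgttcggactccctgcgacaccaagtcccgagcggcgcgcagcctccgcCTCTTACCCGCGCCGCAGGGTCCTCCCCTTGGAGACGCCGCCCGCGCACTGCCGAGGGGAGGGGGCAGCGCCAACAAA
Col4a2: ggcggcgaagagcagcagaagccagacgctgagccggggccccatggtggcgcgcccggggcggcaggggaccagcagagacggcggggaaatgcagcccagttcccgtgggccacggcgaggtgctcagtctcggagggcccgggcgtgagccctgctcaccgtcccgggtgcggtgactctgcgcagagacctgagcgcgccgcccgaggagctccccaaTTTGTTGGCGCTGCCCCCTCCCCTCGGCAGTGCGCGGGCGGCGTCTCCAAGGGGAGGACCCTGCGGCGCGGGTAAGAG
The capitals of one line are the reverse complement of the capitals of the other. The start sites of these windows, 11312826 for Col4a1 and 11312805 for Col4a2, lie inside this shared stretch. Transcripts from these sites overlap by 22 bases at their 5′ ends. The annotated span of Col4a1 reaches further, to 11312889, so the full gene spans overlap by more. The stretch was 73.1% G and C, and the whole windows 74.0% for Col4a1 and 73.7% for Col4a2, where the median of all 32851 promoter windows was 52.7%. The letters GGGCGG, a GC box, were searched on both strands and occurred 1 time in the shared stretch, 1 time in the Col4a1 window and 3 times in the Col4a2 window, and 35.7% of all promoter windows hold them. CCAAT occurred 1 time in each window and 0 times in the shared stretch (37.4% of all windows), and neither TATAAA (13.6%) nor AGATAA (11.2%) occurred in either window.

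The libraries held 16383323 to 19867689 counts, and a gene of the family had 395 to 27453 counts in a library, so the number of libraries limits the precision more than counting does. The targeted RNA was not found by name among the rows, and its level was not analysed here. Values are CPM, counts scaled to a common library total, after TMM scaling, which corrects library sizes for composition. A gene was called at a Benjamini-Hochberg adjusted p below 0.05 in edgeR's quasi-likelihood test over 16209 tested genes, of which 1.43% were called (0.876% higher and 0.555% lower in the knockdown). Embryonic stem cell markers summed to 4670.3 and 4917 CPM in the knockdown and 6106 and 5802 CPM in the controls. Much of that gap was Tdgf1, and the groups overlapped for the other 7 of the 8 markers. Pou5f1, which encodes OCT4, was at 902 and 995 CPM in the knockdown and 1256 and 982 CPM in the controls. Of these 8 markers 1 was called lower, Tdgf1, at 571 and 602 CPM in the knockdown and 1133 and 1552 CPM in the controls (edgeR adjusted p = 0.0438), and 0 were called with total count scaling or with either knockdown library left out.

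Of the 10 genes, 0 were called higher and 0 lower in the knockdown. The sum of their levels was 4936 and 4245 CPM in the knockdown libraries, above the 3862 and 2688 CPM of the controls. As a share of the raw counts, without TMM scaling, the sum was 0.507% and 0.426% against 0.368% and 0.272%. Log2 fold changes (knockdown over control) were above 0 for 8 genes and below 0 for Lamb1 and Nid1, with a median of 0.58 against 0.01 over all tested genes. That median was 0.20 without control replicate 2 and 0.27 without knockdown replicate 1. At an unadjusted p below 0.05, 3 genes were higher (Lama1, Col4a1 and Hspg2) and 0 lower, where 11.0% of all tested genes were higher and 8.58% lower. Both knockdown libraries lay above both controls for 4 genes (Lamc1, Col4a1, Col4a2 and Hspg2; 27.3% of all tested genes) and below them for 1 gene (Nid1; 24.6% of all tested genes). DESeq2, which called 3.81% of all tested genes higher and 3.02% lower, called 0 members (smallest adjusted p 0.109). Limma-voom called 0 members (0.208) where it called 0.925% of genes higher and 0.561% lower, and edgeR's likelihood ratio test called 0 (0.111) where it called 4.91% higher and 3.17% lower. With no filter on low counts, edgeR's quasi-likelihood test called 4 members higher, Lama1, Lamc1, Col4a1 and Hspg2, where 3.75% of genes were called higher and 2.72% lower. Leaving out 1 library at a time gave 1 member called higher without control replicate 1 (2.26% of genes higher, 1.15% lower) and 1 without knockdown replicate 2 (0.635% higher, 0.265% lower). It gave 0 members without control replicate 2 (0.955% higher, 1.10% lower) and 0 without knockdown replicate 1 (1.61% higher, 0.650% lower). In bulk RNA, fewer cells of a type and less RNA per cell cannot be told apart.

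**Figure D1:**
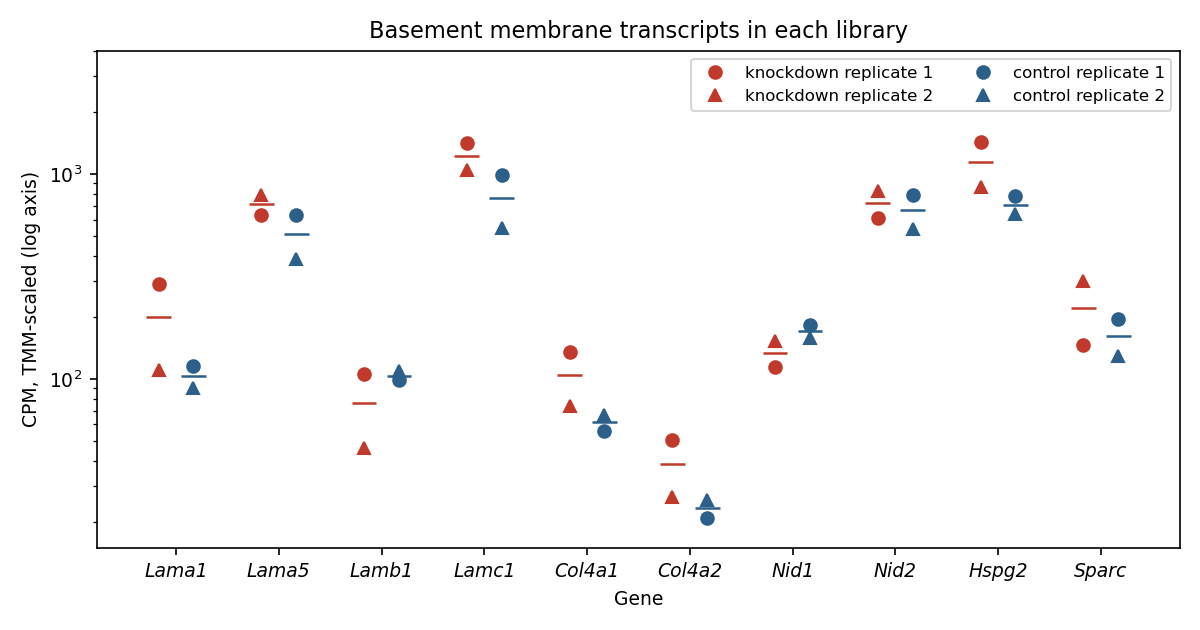
CPM (TMM-scaled, log axis) of the 10 genes in each library, with knockdown points and their mean (line) to the left of the control points and theirs (circles, replicate 1; triangles, replicate 2). The knockdown libraries lie far apart for Lama1 (292 and 110.3 CPM), Lamb1 (106 and 46.1 CPM) and Sparc (147 and 299.5 CPM), and both lie above both controls for Lamc1, Col4a1, Col4a2 and Hspg2.

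The α chains give a laminin its binding to cell receptors. Lama1 encodes α1, the α chain of the first embryonic laminin (chromosome 17 from 67697127 to 67822645). It was at 292 and 110.3 CPM in the knockdown libraries and at 116 and 90.0 CPM in the controls. Knockdown replicate 1 stood alone, while replicate 2 lay between the controls. On the log2 scale the change was 0.97 (standard error, SE, 0.40; 95% interval 0.06 to 1.88), and the edgeR adjusted p was 0.23. It rests on 1 library: without knockdown replicate 1 the log2 fold change was 0.10, and without knockdown replicate 2 it was 1.51 and was called (edgeR adjusted p = 0.0226).

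Lama5 encodes α5, the α chain of the other main laminin of embryonic stem cells (chromosome 2 from 180176373 to 180225904). It was at 629.9 and 792 CPM in the knockdown and at 631 and 387 CPM in the controls. The lower knockdown library was level with the higher control, so the groups overlapped. Its log2 fold change was 0.48 (SE 0.26, edgeR adjusted p = 0.351), and the value was 0.12 when control replicate 2 was left out and 0.87 when control replicate 1 was.

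Lamb1 encodes the β1 chain, which pairs with γ1 inside the cell before an α chain joins (chromosome 12 from 31265146 to 31329644). It was at 106 and 46.1 CPM in the knockdown and at 98.5 and 109.6 CPM in the controls. Knockdown replicate 1 lay between the controls, and replicate 2 was low. The log2 fold change was -0.45 (SE 0.34, edgeR adjusted p = 0.514), and it was -1.18 without knockdown replicate 1 and 0.03 without knockdown replicate 2.

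Lamc1 encodes γ1, the γ chain of most laminins (chromosome 1 from 153218922 to 153332786). It was at 1413 and 1048 CPM in the knockdown and at 987 and 545 CPM in the controls, so the groups did not overlap. On the log2 scale the change was 0.68 (SE 0.30, edgeR adjusted p = 0.258). Here the controls were the wider pair: the value was 0.27 without control replicate 2, and without control replicate 1 it was 1.17 and was called (edgeR adjusted p = 0.0422).

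Per length, the laminin chains were far from equal. Levels were divided by the length of all annotated exons (GENCODE M21) to give CPM per kilobase. On this scale Lamc1 was at 171 and 127 in the knockdown and 119 and 65.9 in the controls, and Lamb1 was at 10.7 and 4.65 in the knockdown and 9.94 and 11.1 in the controls. Lamc1 thus exceeded Lamb1 by 16 and 27.3 times in the knockdown and by 12 and 5.96 times in the controls. The log2 ratio of Lamb1 to Lamc1 was -4.38 ± 0.55 in the knockdown and -3.08 ± 0.71 in the controls (SD, n = 2 each), and the groups did not overlap, but 2 libraries against 2 cannot reach an exact permutation p below 0.333. The Lamb1 locus has much annotated exon outside its longest transcript (9917 bases against 5784), and with the longest transcript as length the log2 ratio was -3.72 in the knockdown and -2.42 in the controls.

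Among the α chains, Lama5 held the larger share of the CPM per kilobase in all 4 libraries. Its share was 63.9% and 83.9% in the knockdown and 81.4% and 77.2% in the controls. Lama1 held 34.8% and 13.7% in the knockdown and 17.5% and 21.1% in the controls, so the knockdown libraries lay on either side of both controls. Among the β chains, Lamb1 held 61.5% and 48.2% in the knockdown and 47.6% and 59.7% in the controls, with Lamb2 holding nearly all of the rest. Lamb2 exceeded Lamb1 in control replicate 1 (51.8%), but with the longest transcript as length Lamb1 held the larger share in all 4 libraries, 71.6% and 59.2% in the knockdown and 58.9% and 70% in the controls. Lamc1 held 98.1% and 94.5% of the γ chain level in the knockdown and 98.4% and 97.8% in the controls.

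**Figure D2:**
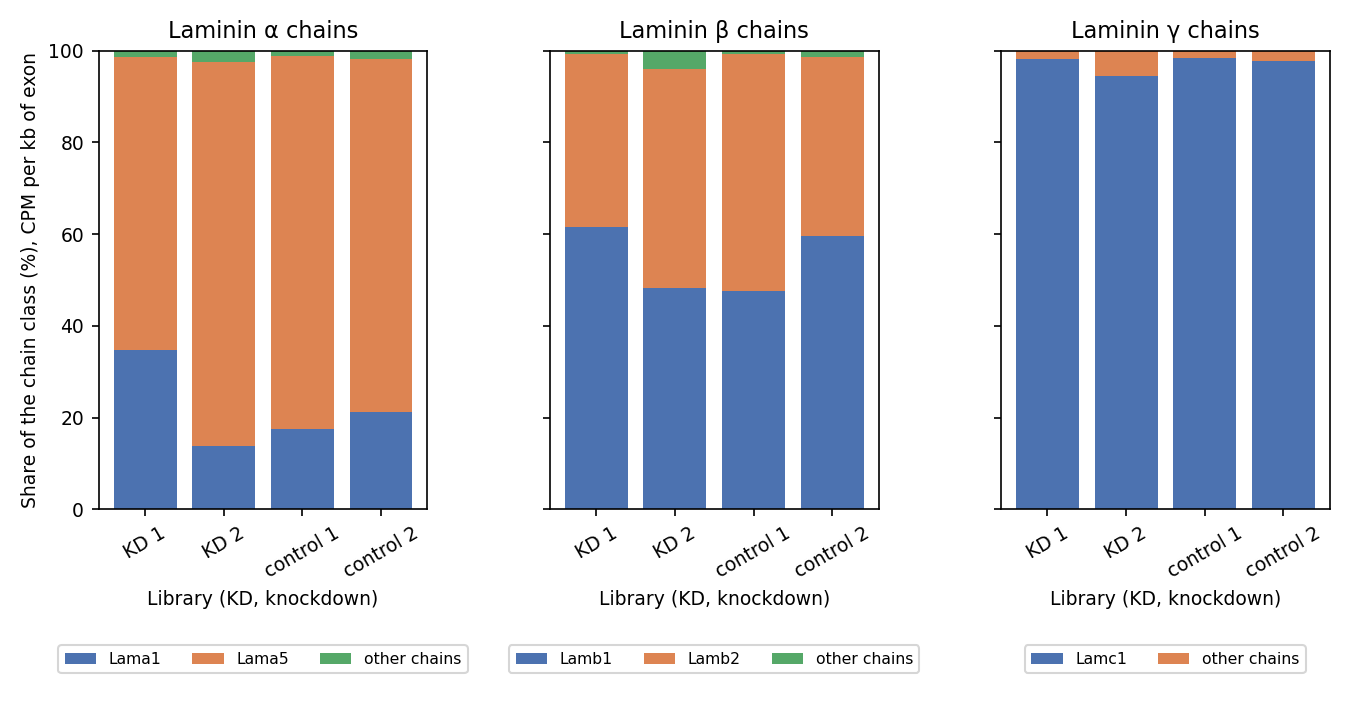
Share of each laminin chain class (%, from CPM per kilobase of exon) in the knockdown (KD) and control libraries, 1 bar per library and 1 colour per chain, with the remaining chains of a class drawn together. Lama5 and Lama1 make up nearly all of the α chains, with Lama1 at 34.8% in knockdown replicate 1 and 13.7% in replicate 2 and at 17.5% and 21.1% in the controls, and Lamc1 makes up at least 94.5% of the γ chains.

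Col4a1 was at 135 and 73.8 CPM in the knockdown and at 56.0 and 66.8 CPM in the controls. Col4a2 was at 50.3 and 26.7 CPM in the knockdown and at 20.9 and 25.8 CPM in the controls. For both genes knockdown replicate 1 was high, and replicate 2 lay just above the higher control. The log2 fold change was 0.77 for Col4a1 (SE 0.28, 95% interval 0.11 to 1.42, edgeR adjusted p = 0.191). It was 0.72 for Col4a2 (SE 0.32, edgeR adjusted p = 0.258). Without knockdown replicate 1 the values were 0.26 for Col4a1 and 0.19 for Col4a2, and without knockdown replicate 2 they were 1.14 and 1.11.

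The chains kept their proportion in each library. Per kilobase of exon, Col4a1 exceeded Col4a2 by 2.39 and 2.45 times in the knockdown and by 2.38 and 2.29 times in the controls. The log2 ratio was 1.27 ± 0.03 in the knockdown and 1.22 ± 0.04 in the controls (SD, n = 2 each). The groups did not overlap in this ratio, but the difference was 0.05 log2 units, and the smallest two-sided exact permutation p of this design is 0.333. The root mean square difference between the centred log2 CPM of Col4a1 and Col4a2 over the 4 libraries was 0.0349. No gene outside the family with a mean of at least 5 CPM came as near to Col4a1 (0 of 11045), although 2 less abundant genes did. The nearest were Zfp651 at 0.0578, Atp6v0e2 at 0.0653 and Hoxd13 at 0.108, a likeness over 4 libraries only. Hspg2 followed within the family at 0.196 and Lama1 at 0.29, but these ranked only 153 and 653 in nearness to Col4a1 among all tested genes. Nid1 at 0.72 and Sparc at 0.754 were the farthest of the family. The other chain genes were hardly detected: Col4a5, the most abundant, was at 2.41 and 2.01 CPM in the knockdown and 0.687 and 1.87 CPM in the controls (log2 fold change 0.79, edgeR adjusted p = 0.501). Col4a3, Col4a4 and Col4a6 were too low to be tested.

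Nid1 encodes nidogen 1 (chromosome 13 from 13437602 to 13512275). It was at 115 and 154 CPM in the knockdown and at 184 and 158 CPM in the controls, with both knockdown libraries below both controls. Its log2 fold change was -0.35 (SE 0.20, edgeR adjusted p = 0.38), and it was -0.16 without knockdown replicate 1 and -0.57 without knockdown replicate 2. Nid2, for nidogen 2 (chromosome 14 from 19751257 to 19811787), was at 611 and 829.5 CPM in the knockdown and at 793 and 538 CPM in the controls. The groups overlapped, and the log2 fold change was 0.11 (SE 0.25, edgeR adjusted p = 0.841), which turned to -0.19 without control replicate 2 and -0.12 without knockdown replicate 2. Per kilobase of exon, Nid2 exceeded Nid1 by 7.14 and 7.25 times in the knockdown and by 5.78 and 4.56 times in the controls. Of the exonic bases of Nid2, 437 overlap Rtraf, 143 of Nid1 overlap an antisense gene, and 65 of Col4a2 overlap Col4a1 or an antisense gene. Since the strand setting is not given, reads there cannot be assigned with certainty.

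Hspg2 encodes perlecan, the heparan sulfate proteoglycan of the basement membrane (chromosome 4 from 137468751 to 137570630). It was at 1436 and 865 CPM in the knockdown and at 778 and 640 CPM in the controls, so the groups did not overlap. On the log2 scale the change was 0.70 (SE 0.26, 95% interval 0.09 to 1.31, edgeR adjusted p = 0.198). It was 0.28 without knockdown replicate 1 and 1.02 without knockdown replicate 2. Sparc encodes a calcium-binding glycoprotein that binds collagen (chromosome 11 from 55394159 to 55420080). It was at 147 and 299.5 CPM in the knockdown and at 197 and 129 CPM in the controls. Its higher knockdown library was replicate 2, the opposite of Lama1 and Col4a1, and replicate 1 lay between the controls. Its log2 fold change was 0.45 (SE 0.34, edgeR adjusted p = 0.506), which was 0.87 without knockdown replicate 1 and -0.15 without knockdown replicate 2.

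**Figure D3:**
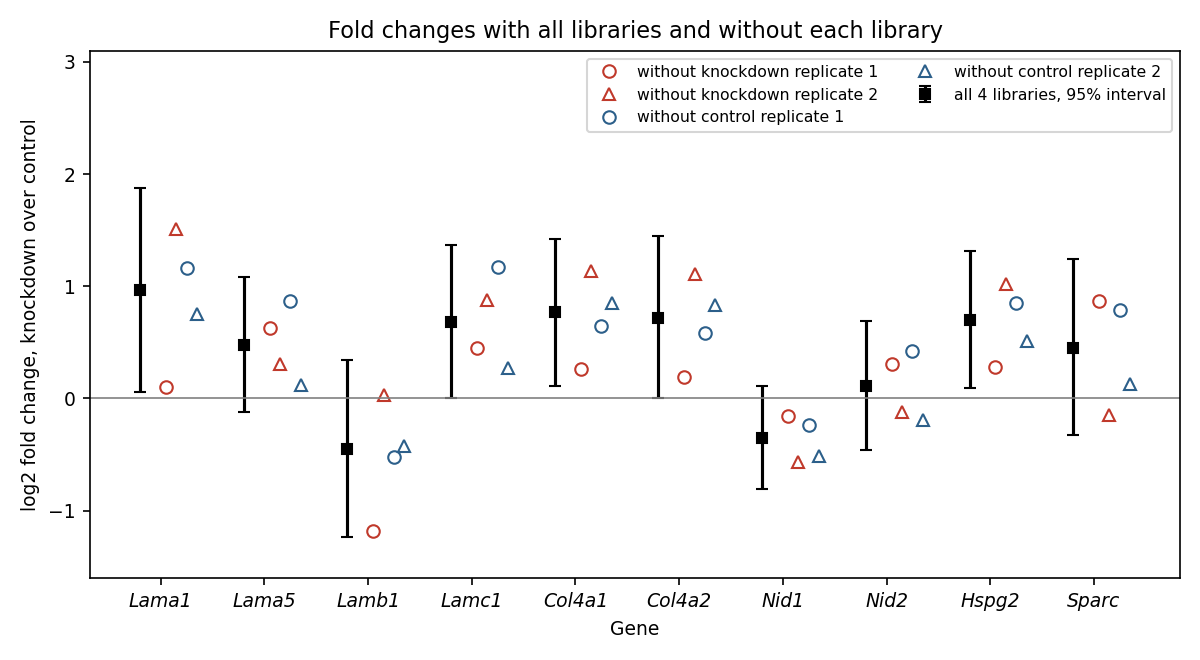
Log2 fold change (knockdown over control) of each gene from edgeR with all 4 libraries (black squares, bars the 95% interval) and with 1 library left out (open symbols). Without knockdown replicate 1 the value is 0.10 for Lama1, 0.26 for Col4a1 and -1.18 for Lamb1, and without knockdown replicate 2 it is 1.51, 1.14 and 0.03 for these genes.

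The knockdown libraries differed from each other more often in this family than over all genes, by a fold limit that was set after the values were seen. They were over 1.5-fold apart for 6 of 10 genes, where 15.6% of all tested genes were, and over 2-fold apart for 3 of 10, where 4.49% were. The ratio of knockdown replicate 1 to replicate 2 was 2.65 for Lama1, 2.30 for Lamb1, 1.89 for Col4a2, 1.84 for Col4a1 and 1.66 for Hspg2, and 0.49 for Sparc. The controls were over 1.5-fold apart for 3 of 10 genes (Lama5, Lamc1 and Sparc), where 22.8% of all tested genes were. These are descriptions of 2 pairs of libraries, with no test of the family.

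Ranked by the mean CPM per kilobase of exon over the 4 libraries, Nid2 (134) and Lamc1 (121) stood first, and 98.3% and 98.1% of the 14762 tested genes with a length lay below them. Hspg2 (65.0), Lama5 (53.6) and Sparc (50.9) followed, then Nid1 (22), Lama1 (15.7), Col4a1 (11.1), Lamb1 (9.09) and Col4a2 (4.67). Of neighbours in this order, only Sparc and Nid1 had ranges over the libraries that did not overlap. With the longest transcript as length, Sparc (83.9) moved above Hspg2 (65.5) and Lamb1 (15.6) above Col4a1 (12.5).

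Other genes of the basement membrane were read from lists of its further parts, receptors and enzymes. Over all tested genes, 11.0% were higher and 8.58% lower at an unadjusted p below 0.05. DESeq2 called 3.81% higher and 3.02% lower, and the likelihood ratio test 4.91% and 3.17%. Of the other laminin chains, 6 of 7 were tested and 0 were called (at an unadjusted p below 0.05, 2 were higher and 1 lower; DESeq2 and the likelihood ratio test each called 1 higher and limma-voom 0). Their median log2 fold change was 0.61. Lamb2, the β2 chain, was at 40.0 and 28.1 CPM in the knockdown and at 65.8 and 43.9 CPM in the controls (log2 fold change -0.69, edgeR adjusted p = 0.213).

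Of 20 further components of the matrix, 14 were tested, 1 was called higher and 0 lower, with a median log2 fold change of -0.01 (DESeq2 and the likelihood ratio test each also called 1 lower). The gene called was Hmcn2, which encodes hemicentin 2, a large matrix protein of the fibulin superfamily. It was at 62.5 and 59.7 CPM in the knockdown and at 16.9 and 12.9 CPM in the controls. The knockdown libraries were close to each other and stood well above both controls. Hmcn2 rose 4.10-fold (log2 fold change 2.03, SE 0.22, edgeR adjusted p = 0.012), and it was called in each of 15 alternative fits at the same threshold.

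Receptors, enzymes of collagen folding and matrix proteases showed 0 called genes with edgeR's quasi-likelihood test. Of 16 tested receptor genes, 2 were higher and 1 lower at an unadjusted p below 0.05, the median log2 fold change was 0.04, and DESeq2 and the likelihood ratio test each called 2 higher. Dag1, for dystroglycan, a laminin receptor, was at 237 and 261 CPM in the knockdown and 289 and 252 CPM in the controls. Itga6, for the integrin α6 that binds laminin, was at 152 and 231 CPM in the knockdown and 212 and 196 CPM in the controls. The groups overlapped for both genes (edgeR adjusted p = 0.755 for Dag1 and 0.863 for Itga6). Of 21 tested genes for collagen folding and secretion, 2 were higher and 3 lower at an unadjusted p below 0.05, the median was 0.15, and DESeq2 and the likelihood ratio test each called 1 lower. P4hb, for the β subunit of prolyl 4-hydroxylase, was at 459.7 and 534 CPM in the knockdown and 554 and 560.4 CPM in the controls, with both knockdown libraries below both controls (log2 fold change -0.16, edgeR adjusted p = 0.657). Colgalt1, for a galactosyltransferase of collagen, was at 188 and 235 CPM in the knockdown and 229.6 and 205 CPM in the controls, and the groups overlapped (edgeR adjusted p = 0.934). Of 19 tested genes for proteases and inhibitors, 3 were higher and 4 lower at an unadjusted p below 0.05, the median was 0.16, and DESeq2 and the likelihood ratio test each called 1 lower. Among the lysosomal proteases, Ctsl was at 204 and 213 CPM in the knockdown and 189 and 176 CPM in the controls, with both knockdown libraries above both controls (log2 fold change 0.19, edgeR adjusted p = 0.565). Ctsb was at 128 and 139 CPM in the knockdown and 135 and 148 CPM in the controls, and the groups overlapped (edgeR adjusted p = 0.823). Limma-voom called 0 genes in each of these 3 lists.

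**Figure D4:**
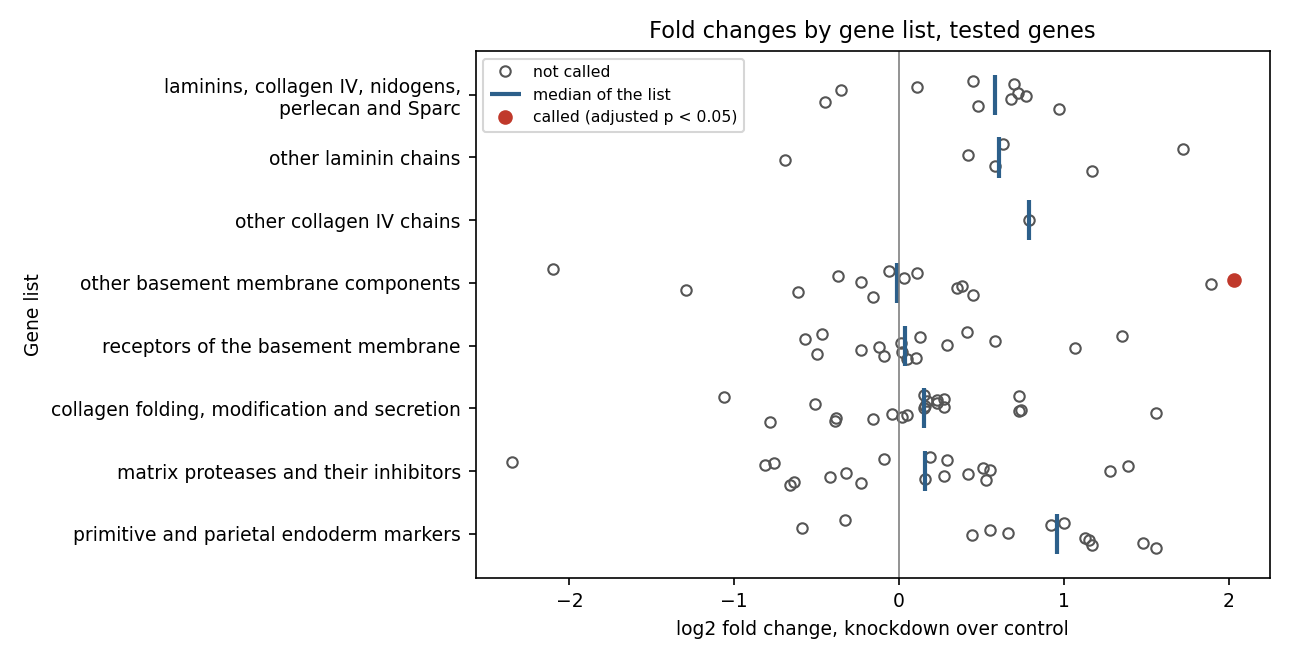
Log2 fold change (knockdown over control) of each tested gene by list, with the list's median as a vertical line and called genes filled. Hmcn2 at 2.03 is the 1 called gene in the lists drawn; the median is 0.58 for the family, 0.61 for the other laminin chains and 0.96 for the endoderm markers.

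Markers of primitive and parietal endoderm, cells that secrete much laminin and collagen IV, were low but higher in sum in the knockdown libraries. The 14 markers summed to 51.3 and 48.5 CPM in the knockdown and to 21.5 and 30.5 CPM in the controls. None of the 14 was at 0 in a library, and Thbd was under 1 CPM in each. Plat stands both here and among the proteases. Of 12 tested markers, 0 were called by edgeR's quasi-likelihood test. At an unadjusted p below 0.05, 4 were higher and 0 lower, where 11.0% of all tested genes were higher and 8.58% lower. DESeq2 called 1 higher (3.81% of all tested genes), the likelihood ratio test 1 (4.91%) and limma-voom 0 (0.925%). In both knockdown libraries 7 markers lay above both controls, where 27.3% of all tested genes did. Gata6, which encodes a factor that specifies primitive endoderm, was at 8.37 and 5.35 CPM in the knockdown and at 1.85 and 2.80 CPM in the controls (log2 fold change 1.56, edgeR adjusted p = 0.11). Gata4, for its relative, was at 15.4 and 6.51 CPM in the knockdown and at 5.02 and 4.72 CPM in the controls (log2 fold change 1.17, edgeR adjusted p = 0.203). The markers did not share one order between the knockdown libraries: Krt19 was at 2.72 and 12.3 CPM in the knockdown and 2.69 and 4.77 CPM in the controls, and Pth1r was at 0.837 and 1.70 CPM in the knockdown and 1.37 and 2.44 CPM in the controls. The part of these cells in the levels of the family was not tested.

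Markers of other cell types were summed in the same way. Visceral endoderm markers summed to 21.9 and 19.8 CPM in the knockdown and 17.8 and 20 CPM in the controls, with Afp, Ttr and Apoa1 under 1 CPM in each library. Trophectoderm markers summed to 60.9 and 107 CPM in the knockdown and 68.8 and 76.5 CPM in the controls. Fibroblast markers summed to 39.5 and 44.9 CPM in the knockdown and 56.9 and 59.6 CPM in the controls, and Lum and Postn were at 0 in each library. Endothelial markers summed to 104 and 70.0 CPM in the knockdown and 40.0 and 32.1 CPM in the controls, with Emcn at 0 in each library. Tek made up most of that sum, at 85.6 and 48.9 CPM in the knockdown and 27.8 and 19.8 CPM in the controls (edgeR adjusted p = 0.0566). Kdr was at 10.2 and 9.24 CPM in the knockdown and 2.64 and 2.65 CPM in the controls (edgeR adjusted p = 0.0503). Tek, Kdr and Esam (log2 fold change 0.65) lay above both controls in both knockdown libraries, while Tie1 (-1.28) and Plvap (-0.95) lay below both. Of all tested genes, 27.3% lay above and 24.6% below in this way. In these 4 lists edgeR's quasi-likelihood test called 0 genes. Limma-voom called 1 endothelial gene higher, and DESeq2 called 1 trophectoderm and 2 endothelial genes higher and 2 fibroblast genes lower. Over all tested genes limma-voom called 0.925% higher, and DESeq2 called 3.81% higher and 3.02% lower. The part of these cell types in the results was not tested either.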

How the data were processed

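The authors deposited 1 table of raw, unnormalized read counts for genes. Per the submitters' processing notes, cutadapt, HISAT2 and featureCounts were used with the build mm10; the sources used here do not give their versions, the annotation, the strand setting or how multiply mapped reads were counted. Per the labels' protocols, an mRNA library kit was used after DNase. From the table, 92 spike-in rows with 0 counts were removed, and edgeR 4.0.16 in R 4.3.3 (limma 3.58.1) was run with filterByExpr, which left 16209 of 35976 genes, TMM scaling and a quasi-likelihood fit on group alone. Standard errors were obtained from the log2 fold change and the F statistic, and the 95% interval uses the t distribution with the moderated degrees of freedom. The Benjamini-Hochberg adjustment covered every tested gene. The common biological coefficient of variation was 24.9%. Counts of the 2 libraries of a group differed beyond sampling error (chi-square over its degrees of freedom 19.7 in the knockdown, 42.3 in the controls). Exon lengths and exon overlaps are from GENCODE M21. Gene positions are from RefSeq (GRCm38.p6), and so are the promoters, where 7 of the 10 genes matched. The members, the 6 pathway lists and the 6 marker lists were chosen with earlier results of these data known. Named genes were all members and, from each pathway list, up to 4 called genes or otherwise the 2 most abundant tested ones. A result for 1 of these genes is not reported here. The 3 genes most like Col4a1, the member with the smallest p, were taken by the root mean square difference of centred log2 CPM (pseudocount 0.5) among genes that averaged at least 5 CPM. The fitting steps were checked on simulated data with the same dispersion for each gene and with changes larger than those of the members. That check does not measure how often changes of the members' size would be called. Alternatives were 3 scalings, 2 filters, DESeq2 1.42.0, limma-voom, a likelihood ratio test, a block for the replicate number, thinning to the shallowest library, a threshold of 0.01, removal of the mitochondrial and the 50 most abundant genes, removal of each library, and another gene length.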

Additional observations from a re-analysis of the deposited data

How the results depend on the processing

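Direction was kept in all 15 alternative fits for Lama1, Lama5, Lamc1, Col4a1, Col4a2, Nid1 and Hspg2. It turned for Lamb1 and Sparc without knockdown replicate 2, for Nid2 without control replicate 2 and without knockdown replicate 2 (-0.12), and for Itga6 without knockdown replicate 1. With a library left out, the log2 fold change ran from -1.18 to 0.03 for Lamb1, from -0.19 to 0.42 for Nid2, from -0.15 to 0.87 for Sparc, from -0.42 to 0.18 for Itga6 and from -0.21 to 0.11 for Colgalt1. Colgalt1 turned with total count scaling (0.01), without control replicate 1 (0.05) and without knockdown replicate 1. The other scalings moved the median of all genes by less than 0.1. Members called higher were 4 with no filter and 0 to 1 when a library was left out (1 without control replicate 1, Lamc1, and 1 without knockdown replicate 2, Lama1), and members called lower were 0 in each fit. The members' median was 0.20 to 0.72 when a library was left out.

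Genes called higher over the whole table, 142 at first, were 996 with no filter, 617 with DESeq2, 796 with the likelihood ratio test, 11 at an adjusted p of 0.01 and 108 to 389 when a library was left out (275 without knockdown replicate 1). Genes called lower, 90 at first, were 57 with total count scaling, 721 with no filter, 490 with DESeq2, 514 with the likelihood ratio test, 6 at an adjusted p of 0.01 and 45 to 198 when a library was left out. The replicate number did not pair the libraries (correlation of deviations from the group means -0.06 across genes). With the replicate block, which leaves 1 residual degree of freedom, 428 genes were called higher and 228 lower, among them 0 members.

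In the lists, the calls with no filter were 2 higher for other laminin chains, 2 higher and 2 lower for further components, 2 higher for receptors, 1 higher and 2 lower for collagen folding, 2 higher and 1 lower for proteases, 3 higher for primitive and parietal endoderm, 1 higher for trophectoderm, 2 lower for fibroblast and 2 higher for endothelial markers. DESeq2 called 1 higher for other laminin chains, 1 lower for further components, 2 higher for receptors, 1 lower each for collagen folding and proteases, 1 higher each for primitive and parietal endoderm and trophectoderm, 2 lower for fibroblast and 2 higher for endothelial markers. The likelihood ratio test gave the same counts and 1 lower for visceral endoderm. The replicate block gave 1 higher for other laminin chains, 1 higher for receptors, 1 lower each for collagen folding and proteases, 1 higher for trophectoderm, 1 lower for fibroblast and 2 higher for endothelial markers. Endothelial markers also had 1 called higher with limma-voom and without the 50 most abundant and mitochondrial genes. The stem cell list had 0 called lower with total count scaling, against 1 at first. When a library was left out, calls were 0 to 1 higher for other laminin chains, 1 to 2 higher and 0 to 1 lower for further components, 0 to 1 higher for receptors, 0 to 1 lower for collagen folding, 0 to 1 higher and 0 to 1 lower for proteases, 0 to 2 lower for the stem cell list, 0 to 1 lower for fibroblast and 0 to 1 higher for endothelial markers. With the longest transcript as length, the log2 ratio of Col4a1 to Col4a2 was 1.41 in the knockdown and 1.36 in the controls, that of Lamb1 to Lamc1 in the knockdown was -3.72 and that of Nid1 to Nid2 in the knockdown -2.74. Where a library is left out, its group's lone library is assumed to vary like the other group. The cause was not tested for any of these differences.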
